A study of Homo sapiens with 84 samples.

Results

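The genes described here are 6 matrix metalloproteinases (MMP1, MMP7, MMP9, MMP10, MMP13, and MMP14) and 3 tissue inhibitors of metalloproteinases (TIMP1, TIMP2, and TIMP3). They were taken by symbol, with earlier results of these data known. Each of the 9 was found once among the 58395 gene identifiers counted in every library. Matrix metalloproteinases are zinc-dependent proteases that cleave collagens, laminins, fibronectin, and other proteins of the extracellular matrix. Most are secreted as inactive precursors that other proteases activate, while MMP14 is anchored in the cell membrane. TIMPs bind the active site and block it, and TIMP3 is retained in the matrix. In squamous cell carcinoma these proteases are known for their part in invasion through the basement membrane.

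Kyse30 is a line of squamous cell carcinoma of the esophagus, with 43 libraries, and FaDu is a line of squamous cell carcinoma of the pharynx, with 41 libraries. All cells were serum-starved before treatment and stayed without serum, the controls included. Untreated cells (Ctrl) were taken at 0, 6, and 72 h. The other cells received Fc, EpEX-Fc (EpEX), EGF at 1.8 nM (EGFlow), EGF at 9 nM (EGFhigh), or EGFhigh with EpEX for 6 or 72 h. EGF is a ligand of the receptor EGFR, EpEX is the extracellular domain of the epithelial adhesion molecule EpCAM, and Fc is the antibody fragment fused to it, which serves as its control. Each line is 1 cancer cell line, the labels do not say whether replicates came from separate cultures, and the p-values therefore measure the spread between these libraries, which may be technical.

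Libraries of Kyse30 held 1944948 to 11759799 reads on genes, and those of FaDu replicates 3 and 4 held 6217938 to 12442349. Levels are given as CPM, the reads of a gene scaled to the same total of reads on genes in every library. Only the 3′ ends of transcripts were read, so CPM values are not divided by transcript length and are not compared between genes. Of the squamous epithelium markers, 6 of 8 had a mean of at least 5 CPM in Kyse30 (KRT5 and KRT14 were lower) and 8 of 8 in FaDu replicates 3 and 4. Of the 8 fibroblast markers, 2 reached that mean in Kyse30 (COL1A1 at 15.1 CPM and COL1A2 at 6.00 CPM) and 1 in FaDu replicates 3 and 4 (COL1A1 at 9.06 CPM). No leukocyte or endothelial marker reached it in these libraries. FaDu replicates 1 and 2 (21 libraries) stood apart: their summed fibroblast markers ran from 6.27 to 5503 CPM, against 7.07 to 15.8 CPM in FaDu replicates 3 and 4 and 10.6 to 47.9 CPM in Kyse30. TIMP3 differed in them between replicates of 1 condition, with 542 and 42.2 CPM in untreated cells at 6 h and 2.83 and 394 CPM after EGFhigh at 72 h. FaDu values below are therefore those of replicates 3 and 4 (20 libraries), in which 7 conditions had 2 libraries and 6 had 1. Conditions with 1 library were not tested.

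MMP7, MMP10, MMP1, and MMP13 lie in this order in a cluster on the minus strand of chromosome 11, at chr11:102520508-102530753, chr11:102770503-102780628, chr11:102789920-102798160, and chr11:102942995-102955734 (GRCh38, GENCODE release 29). MMP14 lies at chr14:22836557-22849027 and MMP9 at chr20:46008908-46016561, both on the plus strand. TIMP1 lies at chrX:47582313-47586789 and TIMP3 at chr22:32801701-32863043 on the plus strand, and TIMP2 at chr17:78852977-78925387 on the minus strand. TIMP1 and TIMP3 lie within SYN1 and SYN3 on the other strand, with no shared exonic base, and neither of these had more than 1 read in any Kyse30 or FaDu replicate 3 and 4 library. An exon of WTAPP1 on the other strand covers 150 exonic bases of MMP1 (7.61%), and SLC12A5-AS1 covers 430 of MMP9 (18.4%). The strand setting of the counting is not stated, so reads of these overlaps cannot be told apart. WTAPP1 and SLC12A5-AS1 each had at most 31 reads in a Kyse30 library. CEP295NL shares 198 exonic bases with TIMP2 on the same strand and had at most 7 reads.

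Promoter sequences from RefSeq (GRCh38.p14) were at hand for 5 of the 9 genes, MMP7, MMP10, MMP14, TIMP1, and TIMP3. Of these, 4 are shown because they pair the matrilysin and stromelysin of the cluster, of which only MMP10 was detected throughout, with the inhibitors that moved in opposite directions. Each is the 250 bases before the start that RefSeq gives the gene, 5′ to 3′ on its strand, and capitals mark matches to the AP-1 motif TGANTCA, the ETS motif AGGAAG, or the TATA motif TATAAA on either strand. The windows are chr11:102530748-102530997 (MMP7, minus), chr11:102780629-102780878 (MMP10, minus), chrX:47582186-47582435 (TIMP1, plus), and chr22:32801455-32801704 (TIMP3, plus). The RefSeq start of TIMP1, MMP7, and TIMP3 differs from the GENCODE start above, so that these windows reach into the genes as GENCODE places them, by a few bases for MMP7 and TIMP3 and further for TIMP1, where the ETS match lies inside the gene.
MMP7: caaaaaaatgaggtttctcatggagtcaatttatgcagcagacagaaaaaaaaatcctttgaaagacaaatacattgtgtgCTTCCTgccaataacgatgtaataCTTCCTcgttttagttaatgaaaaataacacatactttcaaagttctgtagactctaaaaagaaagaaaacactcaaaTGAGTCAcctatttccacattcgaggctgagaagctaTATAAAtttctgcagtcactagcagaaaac
MMP10: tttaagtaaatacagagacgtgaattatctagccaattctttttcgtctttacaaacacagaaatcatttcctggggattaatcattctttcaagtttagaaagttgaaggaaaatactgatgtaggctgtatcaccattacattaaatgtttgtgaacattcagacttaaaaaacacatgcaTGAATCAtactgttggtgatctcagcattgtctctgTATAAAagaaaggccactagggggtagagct
TIMP1: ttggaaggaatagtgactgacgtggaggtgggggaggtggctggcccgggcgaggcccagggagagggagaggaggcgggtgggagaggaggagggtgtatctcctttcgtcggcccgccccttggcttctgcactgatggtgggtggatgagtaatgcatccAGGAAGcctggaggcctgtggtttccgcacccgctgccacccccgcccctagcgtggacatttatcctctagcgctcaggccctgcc
TIMP3: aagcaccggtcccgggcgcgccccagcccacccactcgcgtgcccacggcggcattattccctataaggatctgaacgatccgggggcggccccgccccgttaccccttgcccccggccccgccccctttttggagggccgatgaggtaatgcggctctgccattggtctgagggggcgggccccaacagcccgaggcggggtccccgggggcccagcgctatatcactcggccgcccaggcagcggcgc

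MMP7 and MMP10 both held 1 AP-1 match that began 67 bases before the RefSeq start, and a TATA match that began 30 and 31 bases before it. MMP7 also held 2 ETS matches, and TIMP1 held 1. The promoters of TIMP3 and MMP14 held none of the 3 motifs. Over 250 bases before to 50 after the start, the AP-1 motif occurred in 7.71% of 35116 promoters, the ETS motif in 33.6%, and the TATA motif in 11.5%. A match describes letters only and says nothing of binding.

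MMP7, MMP9, and MMP13 were too low to judge in Kyse30, where none passed the filter on low counts. MMP7, the small matrilysin of epithelia, had 0 reads in 39 of 43 libraries and at most 2 in any. MMP9, gelatinase B, had 0 reads in 34 of 43 libraries and at most 6 in any. Its 29 reads came from 8 of the 22 libraries with EGF (27 reads) and 1 of 6 with EpEX alone (2 reads), and none came from the 15 Ctrl and Fc libraries. MMP13, collagenase-3, had 0 reads in 37 of 43 libraries, and 16 of its 23 reads lay in 1 EGFlow library at 6 h. A count of 0 allows up to 3 counts, which is 0.255 to 1.54 CPM in these libraries, so lower levels were not detectable. These limits cover counting error only. In FaDu, MMP7 had 0 reads in 17 of 20 libraries and at most 4, while MMP9 (at most 13 reads) and MMP13 (4 to 19 reads) were low but passed the filter.

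TIMP3 in Kyse30 was higher in untreated cells at 72 h than at 6 h, and lower after EGFhigh for 72 h than in Ctrl at 72 h. In Ctrl it was 19.4, 36.7, and 17.1 CPM at 0 h and 47.4, 37.9, and 22.9 CPM at 6 h, and at 72 h it was 360, 422, and 343 CPM. All 3 Ctrl libraries at 72 h lay above all 3 at 6 h, a log2FC of 3.36 ± 0.55 (SE, adjusted p = 0.000407), or 10.3-fold. TIMP3 was the only member called (adjusted p of at most 0.05 and absolute log2FC over 0.5, edgeR) between these time points, at which 1.55% of 15350 genes tested were called. From 0 to 6 h no member was called, and neither was any gene (0%).

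**Figure D1:**
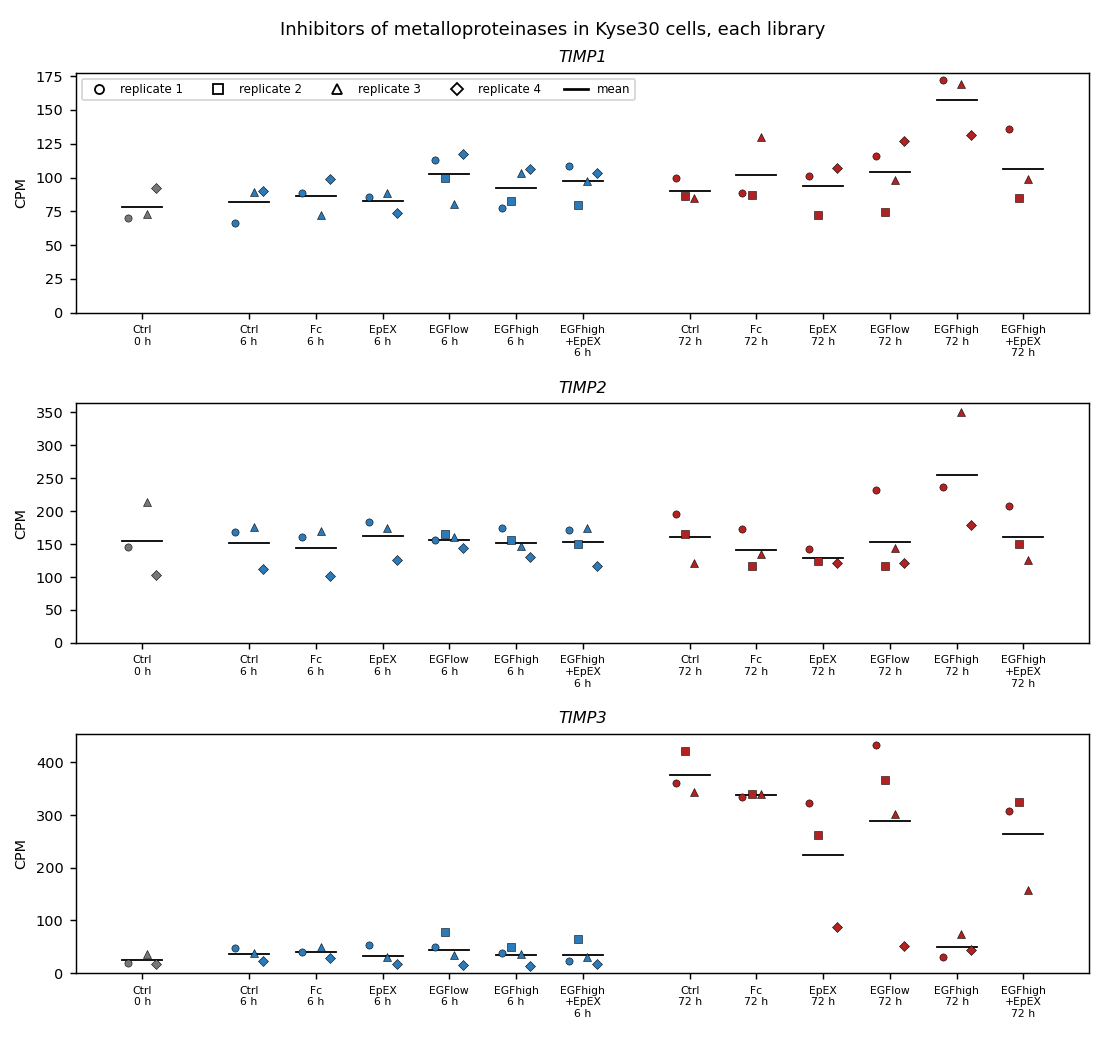
CPM of TIMP1, TIMP2, and TIMP3 (linear axes from 0) in each Kyse30 library, by treatment and time. Points are libraries, with the symbol giving the replicate number, and lines are means. TIMP3 lies between 334 and 422 CPM in Ctrl and Fc at 72 h, and does not exceed 77.0 CPM in EGFhigh at 72 h or in any library at 0 or 6 h.

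After EGFhigh for 72 h TIMP3 was lower than in Ctrl at 72 h. The 3 libraries had 31.1, 73.6, and 44.3 CPM, and none overlapped Ctrl at 72 h. The log2FC was -2.78 ± 0.53 (adjusted p = 0.000615), which is 6.86-fold lower (95% confidence interval 3.25 to 14.5). After 6 h of EGFhigh the libraries had 38.6, 50.2, 36.7, and 14.3 CPM, which overlapped Ctrl (log2FC -0.04 ± 0.48). The difference between the responses at 72 and 6 h was itself called, at -2.74 ± 0.71 (adjusted p = 0.0438), where 1.01% of genes were called. This call rested on nearly every library: it was lost without any 1 of 11 of its 13 libraries (adjusted p 0.0595 to 0.145) and stayed without EGFhigh replicate 4 at 6 h or replicate 3 at 72 h.

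TIMP3 was above its Ctrl range at 6 h in every library of the other treatments at 72 h. EGFlow had 434, 366, and 302 CPM in replicates 1 to 3 and 51.4 CPM in replicate 4. EpEX had 323 and 263 CPM in replicates 1 and 2 and 87.0 CPM in replicate 4. EGFhigh with EpEX had 308, 325, and 159 CPM, and Fc had 334, 341, and 340 CPM. By mean level, the order was Ctrl (375 ± 41.4 CPM, SD, n = 3), Fc (338 ± 3.57, n = 3), EGFlow (288 ± 167, n = 4), EGFhigh with EpEX (264 ± 91.6, n = 3), EpEX (224 ± 123, n = 3), and EGFhigh (49.6 ± 21.8, n = 3), followed by all conditions at 6 h (33.2 to 44.0) and 0 h (24.4 ± 10.7). Only Ctrl and Fc, and EpEX and EGFhigh, were neighbours in this order whose libraries did not overlap. EpEX (log2FC -0.56 ± 0.50) and EGFhigh with EpEX (-0.32 ± 0.50) also lay below Fc without overlap, and neither difference was called.

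EGFhigh was lower than EGFlow by a log2FC of -2.44 ± 0.51 (adjusted p = 0.00227), with EGFlow replicate 4 inside the EGFhigh range. EGFhigh with EpEX was higher than EGFhigh alone by a log2FC of 2.29 ± 0.52 (adjusted p = 0.0067), a 4.88-fold difference without overlap. No condition held EGFhigh with Fc, so EpEX and its Fc part cannot be told apart in this comparison. Fitted on only the groups compared, the difference from EGFlow missed the threshold (-2.42, adjusted p = 0.0506). Without EGFhigh replicate 1 the difference from EGFhigh with EpEX missed the threshold (2.05, adjusted p = 0.0563). Replicate 4 had the lowest TIMP3 in 9 of the 10 Kyse30 conditions that include it, and Ctrl, Fc, and EGFhigh with EpEX at 72 h had no replicate 4. With replicates 1 to 3 alone, an alternative chosen after seeing the data, the log2FC of TIMP3 was -2.70 for EGFhigh against Ctrl (adjusted p = 8.62e-05), -2.70 against EGFlow (adjusted p = 0.000101), and 2.21 for EGFhigh with EpEX against EGFhigh (adjusted p = 0.00156).

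**Figure D2:**
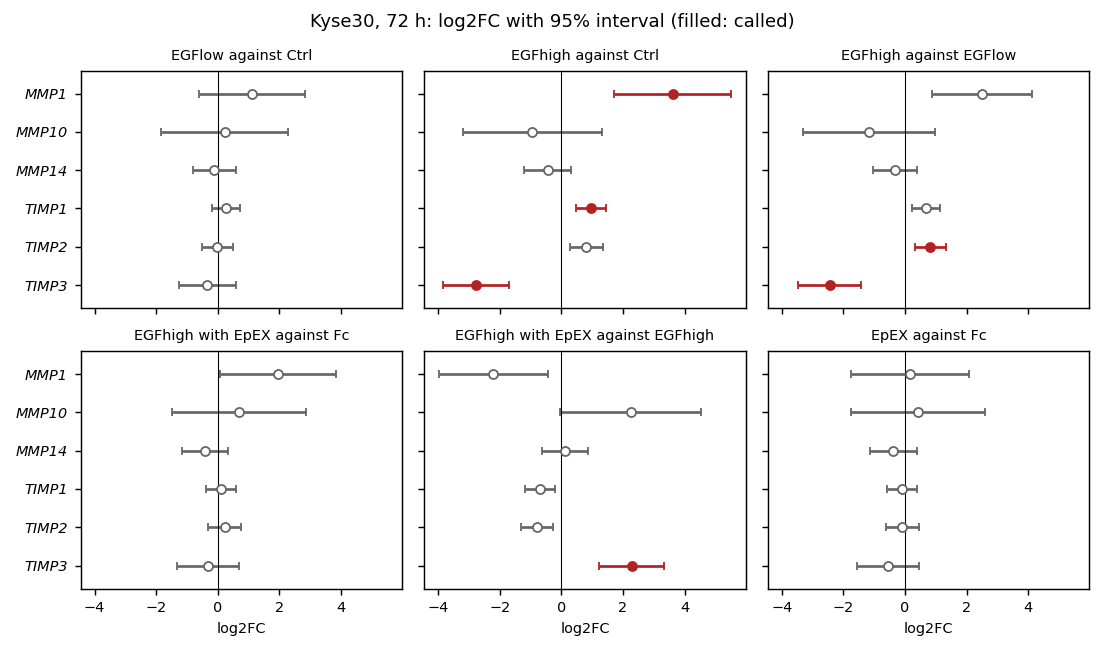
log2FC (horizontal axis) of the 6 members tested in Kyse30 at 72 h, in 6 comparisons. Points are edgeR estimates, bars are 95% intervals, and filled red points were called. TIMP3 is called on the negative side in both comparisons of EGFhigh with lower EGF, and on the positive side in EGFhigh with EpEX against EGFhigh.

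TIMP1, a soluble inhibitor that is often induced by growth factors, rose with EGFhigh at 72 h. The libraries had 172, 170, and 132 CPM against 99.9, 86.3, and 84.8 CPM in Ctrl, without overlap. The log2FC was 0.95 ± 0.24 (adjusted p = 0.0103), or 1.93-fold, and it missed the threshold without Ctrl replicate 2 (0.89, adjusted p = 0.0679). Against EGFlow (116, 74.2, 98.0, and 127 CPM) the log2FC was 0.69 ± 0.22 (adjusted p = 0.0698). EGFhigh with EpEX had 136, 84.8, and 98.7 CPM, a log2FC of -0.69 ± 0.24 against EGFhigh (adjusted p = 0.101). TIMP1 and MMP1 belong to the signature that the study derived from these samples, so their rise is not independent evidence of its direction.

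TIMP2, the inhibitor that also takes part in the activation of MMP2 by MMP14, was called against EGFlow but not against Ctrl. It had 237, 351, and 178 CPM after EGFhigh at 72 h, 196, 165, and 122 CPM in Ctrl, and 232, 117, 144, and 121 CPM after EGFlow. Both sets overlapped those of EGFhigh. The log2FC was 0.83 ± 0.24 against EGFlow (adjusted p = 0.0417) and 0.82 ± 0.26 against Ctrl (adjusted p = 0.0523, not called). The call against EGFlow was lost without 5 of the 7 libraries in turn, EGFhigh replicates 1 and 3 and EGFlow replicates 2, 3, and 4 (adjusted p 0.0708 to 0.343, lowest log2FC 0.55). In 8 of 14 alternative fits the difference from Ctrl was called, among them that with replicates 1 to 3 alone (1.03, adjusted p = 0.0195). TIMP2 of replicate 4 was the lowest in 9 of 10 conditions.

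MMP1, interstitial collagenase, was low in Kyse30 and rose with EGFhigh at 72 h. It had 8.42, 4.34, and 36.3 CPM (80, 26, and 271 reads) in replicates 1, 3, and 4, against 2.39, 0.828, and 0.990 CPM (25, 4, and 5 reads) in Ctrl. The libraries did not overlap, and the log2FC was 3.62 ± 0.94 (adjusted p = 0.013). The size of this rise depended on 1 library: without EGFhigh replicate 4 the log2FC was 2.31 (adjusted p = 0.197). It also missed the threshold without Ctrl replicate 2 (3.35, adjusted p = 0.0861) or replicate 3 (3.45, adjusted p = 0.0716). EGFlow had 0.646, 0.926, 3.78, and 6.66 CPM (log2FC 1.12 ± 0.85 against Ctrl), and EGFhigh with EpEX had 5.13, 1.53, and 4.69 CPM (1.95 ± 0.93 against Fc), and neither was called. Both sets overlapped EGFhigh, and neither direct difference was called. The log2FC was 2.50 ± 0.80 for EGFhigh against EGFlow (adjusted p = 0.0726) and -2.21 ± 0.88 for EGFhigh with EpEX against EGFhigh (adjusted p = 0.173). In the other conditions the means lay between 0.671 and 3.15 CPM, and all neighbours in the order of means overlapped.

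MMP10, stromelysin-2, was highest in replicate 4 in 10 of the 10 Kyse30 conditions that include it, with 10.6 CPM at 0 h against 0.170 and 0.595 CPM, and 12.8 CPM in Ctrl at 6 h against 3.95 and 2.55 CPM. At 72 h, Ctrl had 6.87, 7.04, and 7.72 CPM, and EGFhigh had 0.737 and 0.334 CPM in replicates 1 and 3 and 9.12 CPM in replicate 4. EGFhigh thus lay below Ctrl in 2 libraries and above it in 1, and the log2FC of -0.95 ± 1.12 was not called (adjusted p = 0.711). Fc had 6.71, 17.5, and 10.4 CPM, EpEX had 7.41, 9.84, and 26.0 CPM, and EGFlow had 2.58, 5.96, 7.83, and 15.7 CPM. EGFhigh with EpEX had 3.96, 26.7, and 22.0 CPM, a log2FC of 2.25 ± 1.14 against EGFhigh (adjusted p = 0.32). With replicates 1 to 3 alone the same differences were -3.49 ± 0.94 (adjusted p = 0.0271) and 4.80 ± 0.98 (adjusted p = 0.00424), with 7 and 2 reads in the EGFhigh libraries. A fit of all Kyse30 libraries with a replicate block called both differences as well. What sets replicate 4 apart was not tested.

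**Figure D3:**
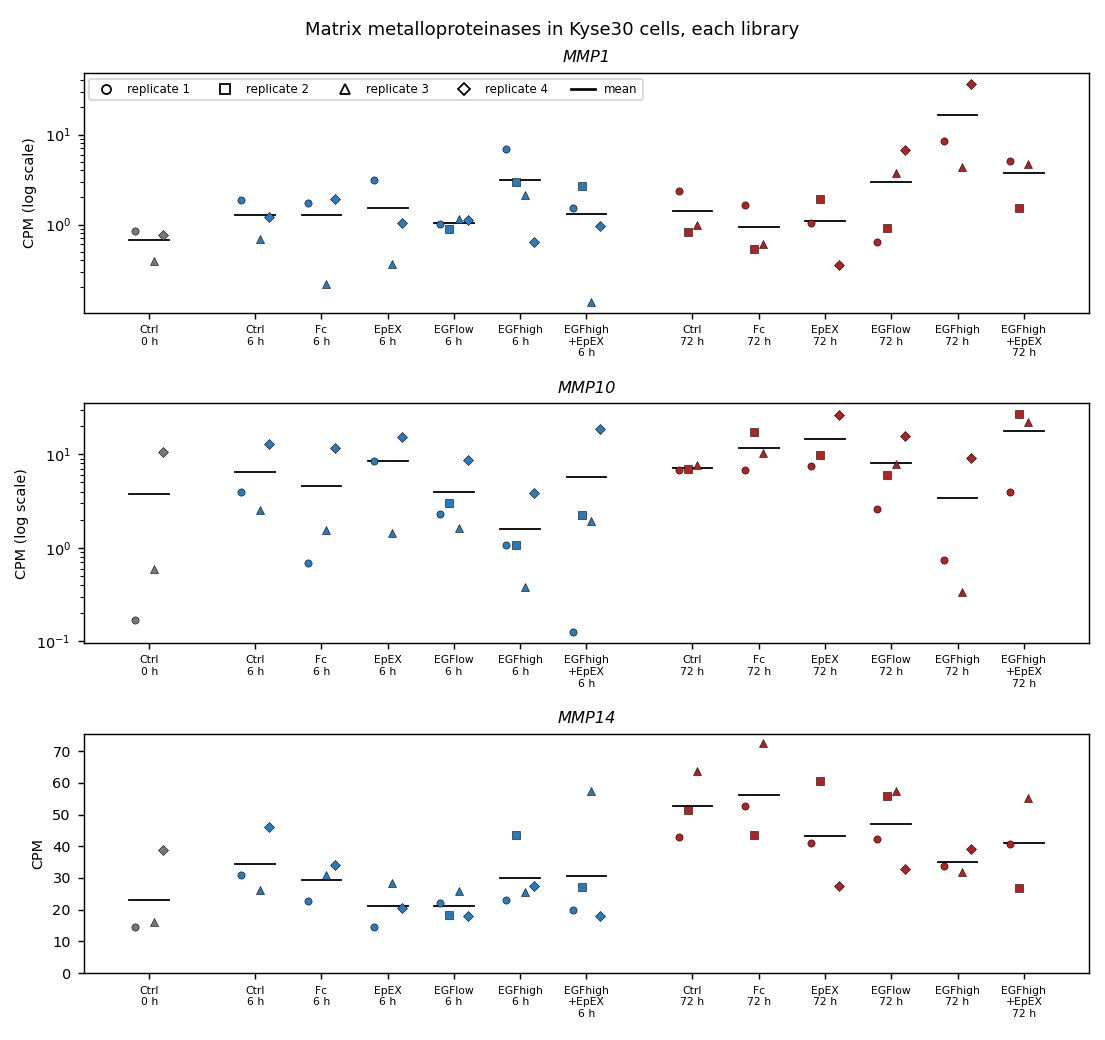
CPM of MMP1 and MMP10 (log axes) and MMP14 (linear axis from 0) in each Kyse30 library, by treatment and time. Points are libraries, with the symbol giving the replicate number, and lines are means. Replicate 4 (diamonds) is the highest MMP10 library in all 10 conditions that include it, and MMP1 is highest in EGFhigh at 72 h.

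MMP14, the membrane-bound protease that activates MMP2, was not called in any comparison of Kyse30. EGFhigh at 72 h had 33.9, 31.9, and 39.3 CPM against 42.8, 51.5, and 63.8 CPM in Ctrl. The libraries did not overlap, but the log2FC of -0.45 ± 0.37 was not called (adjusted p = 0.557). Its means ran from 21.1 CPM (EGFlow, 6 h) to 56.3 CPM (Fc, 72 h), the 6 highest means were those at 72 h, and all neighbours in that order overlapped. From 6 to 72 h Ctrl differed by 0.59 ± 0.37 (adjusted p = 0.53).

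Over the comparisons with EGFhigh at 72 h in Kyse30, 3 of the 6 members tested were called against Ctrl (2 higher, 1 lower), where 6.2% of genes were called. Against EGFlow 2 were called (1 higher, 1 lower) at a background of 3.73%, and with EpEX added 1 was called at 3.58%. No member was called in the other comparisons at 72 h, EGFlow against Ctrl, EpEX against Fc, EGFhigh with EpEX against Fc, and Fc against Ctrl, in which no gene was called (0% each). At 6 h no member was called with EGFlow (background 1.5%), EGFhigh (2.55%), EpEX (0.0261%), or EGFhigh with EpEX (4.52%), and their log2FC values ran from -1.85 to 1.26. The lowest of these was MMP10 with EGFhigh (SE 1.08, adjusted p = 0.441). Comparisons of EGFhigh with EGFlow, EGFhigh with EpEX against EGFhigh, and Fc with Ctrl at 6 h called no gene (0%). In the 12 Kyse30 comparisons with no member called by edgeR, at most 1 member had an unadjusted p under 0.05, and DESeq2 called 0 as well. Comparisons with the same control share those libraries.

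In FaDu no member was called in the 7 comparisons that could be tested, by edgeR at most 2 had an unadjusted p under 0.05, and DESeq2 called 1, TIMP1 with EpEX. The background was 3.45% of 16022 genes for EGFlow, 3.06% for EGFhigh, and 3.5% for EpEX at 6 h, and 0.818% for EGFhigh with EpEX at 72 h. TIMP1 had 93.1 and 98.4 CPM with EpEX against 56.7 and 64.7 CPM in Fc at 6 h, a log2FC of 0.77 ± 0.22 (adjusted p = 0.0597, and 0.0178 by DESeq2). With EGFhigh it had 95.9 and 102 CPM against 62.9 and 78.2 CPM in Ctrl (0.57 ± 0.22, adjusted p = 0.207), and with EGFlow 77.1 and 107 CPM (0.47 ± 0.22, adjusted p = 0.315). The EpEX and EGFhigh libraries lay above their controls, and those of EGFlow overlapped. With all 41 FaDu libraries no gene at all was called in these 7 comparisons (0 of 18533 in each). That fit therefore cannot show whether a member differs. In it the log2FC of TIMP1 with EpEX at 6 h was 0.23 ± 1.06.

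At 72 h TIMP1 had 343 CPM in the single EGFhigh library (replicate 4) against 57.3 CPM in the single Ctrl library, and 139 CPM in the single EGFlow library. This difference has no replicate check and was not tested. EGFhigh with EpEX had 91.7 and 109 CPM against 52.9 and 80.0 CPM in Fc (0.64 ± 0.22, adjusted p = 0.327). MMP1 had 6.27 CPM in the single EGFhigh library and 1.32 CPM in Ctrl (78 and 15 reads). At 6 h MMP1 had 7.75 and 8.16 CPM with EGFhigh and 5.67 and 4.69 CPM in Ctrl (0.71 ± 0.51, adjusted p = 0.576).

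No difference of the other members was called in FaDu. MMP14 had 4.60 and 4.98 CPM with EGFhigh at 6 h against 6.26 and 13.3 CPM in Ctrl (-0.94 ± 0.46, adjusted p = 0.365), without overlap. MMP10 had 5.52 and 1.43 CPM with EGFhigh and EpEX at 72 h against 13.8 and 4.88 CPM in Fc (-1.39 ± 0.57, adjusted p = 0.586), and these libraries overlapped. TIMP3 did not exceed 2.84 CPM (2 to 23 reads) and TIMP2 did not exceed 6.93 CPM in any library. MMP9 had 0 reads in both EGFlow libraries at 6 h and 9 and 2 reads in Ctrl, so no fold is given. From 6 to 72 h in Fc (background 2.88%) TIMP2 went from 1.14 and 3.95 CPM to 6.18 and 6.93 CPM (1.29 ± 0.61, adjusted p = 0.331), also without overlap. EGFhigh against EGFlow and Fc against Ctrl at 6 h called no gene (0%).

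**Figure D4:**
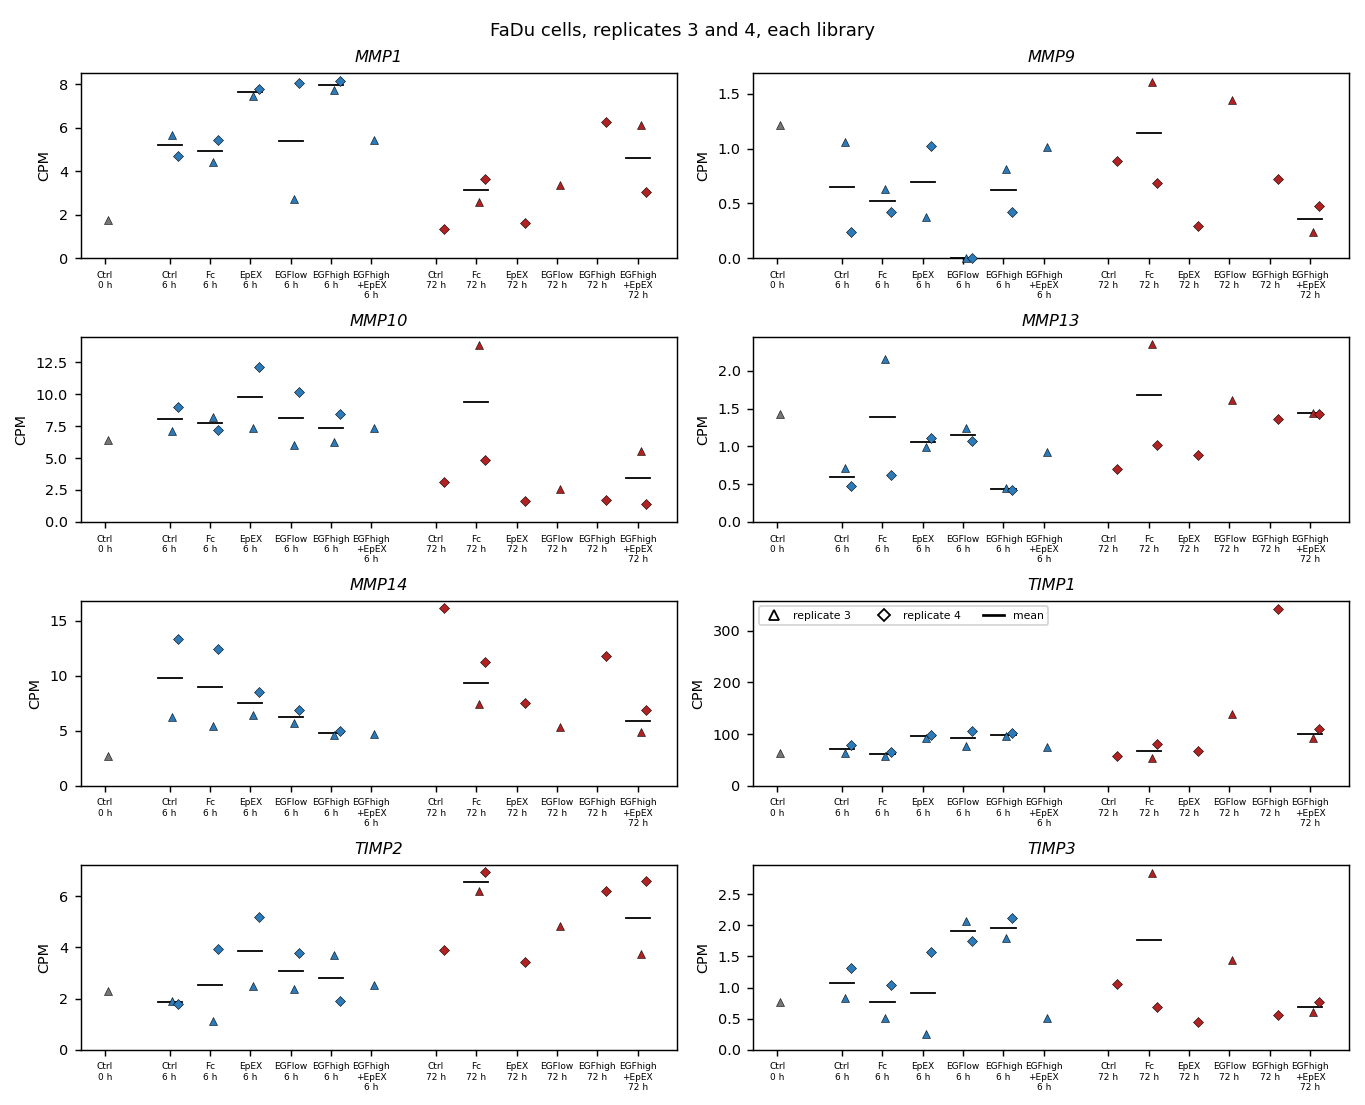
CPM of the 8 members tested in FaDu replicates 3 and 4 (linear axes from 0), by treatment and time. Points are libraries and lines are means of 2 libraries, so conditions with 1 point had no replicate. TIMP1 reaches 343 CPM in the single EGFhigh library at 72 h.

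TIMP2, TIMP3, and MMP14 were higher in Kyse30 than in FaDu replicates 3 and 4. In untreated cells at 6 h, TIMP2 had 168, 176, and 112 CPM in Kyse30 and at most 1.89 CPM in the FaDu libraries (mean 1.85 CPM), a log2FC of 6.33 ± 0.46 (adjusted p = 4.01e-16). TIMP3 had 47.4, 37.9, and 22.9 CPM against 0.827 and 1.32 CPM (5.02 ± 0.77, adjusted p = 9.56e-07). MMP14 had 30.8, 26.3, and 46.0 CPM against 6.26 and 13.3 CPM (3.49-fold, 95% interval 1.86 to 6.57, adjusted p = 0.00206). All 3 were higher in Kyse30 without overlap, beside a background of 22.4% of 19634 genes called. With all 41 FaDu libraries none of these calls was kept, at a log2FC of 2.07 ± 1.21 for TIMP2 (adjusted p = 0.326), -1.78 ± 1.73 for TIMP3 (adjusted p = 0.601), and 1.94 ± 1.10 for MMP14 (adjusted p = 0.31). In that fit 953 of 19519 genes were called. The differences between the lines therefore rest on leaving out FaDu replicates 1 and 2, and TIMP3 was among the values by which these were set apart. Over all their conditions, TIMP2 had 13.2 to 384 CPM (median 143), above its highest library in replicates 3 and 4 (6.93 CPM). TIMP3 had a median of 44.6 CPM and MMP14 of 7.73 CPM, against 50.2 and 31.9 CPM in Kyse30. Without FaDu replicate 3 the log2FC of MMP14 was 1.38 and missed the threshold (adjusted p = 0.109). TIMP1 did not differ detectably, with 66.5, 88.9, and 89.7 CPM in Kyse30 and 62.9 and 78.2 CPM in FaDu (0.21 ± 0.27, 95% interval -0.32 to 0.75).

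MMP1 had 1.88, 0.696, and 1.22 CPM in Kyse30 and 5.67 and 4.69 CPM in FaDu, without overlap, but the log2FC of -2.08 ± 0.88 was not called (adjusted p = 0.0821). MMP9 had 0 reads in the 3 Kyse30 libraries and 9 and 2 reads in FaDu. MMP10 overlapped between the lines. The response to EGF at 6 h differed between the lines for no member with EGFlow (background 0.112%) or EGFhigh (0.0611%), by edgeR and by DESeq2.

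**Figure D5:**
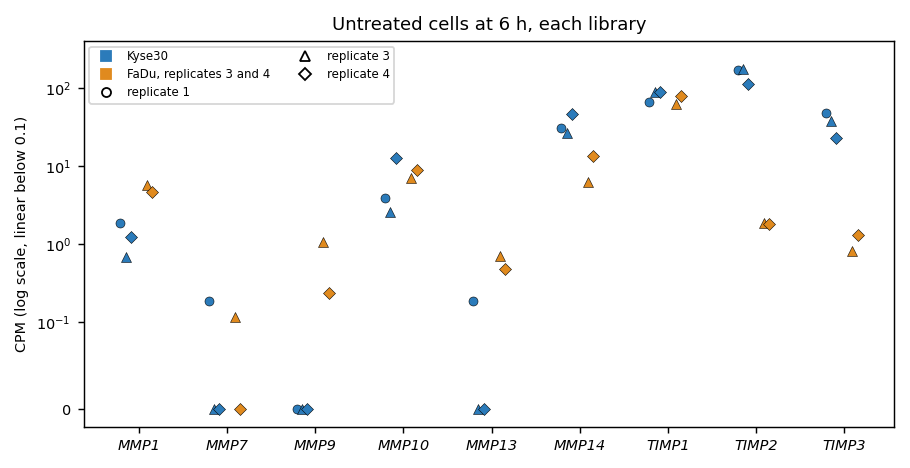
CPM (log axis, linear below 0.1) of the 9 genes in untreated Kyse30 (blue, 3 libraries) and FaDu replicates 3 and 4 (orange, 2 libraries) at 6 h. Each point is a library. TIMP2, TIMP3, and MMP14 lie higher in Kyse30, and TIMP1 lies between 62.9 and 89.7 CPM in both.

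Of the 17 other MMPs listed, 7 were tested in Kyse30 and 7 in FaDu, and none was called in any treatment or time comparison. MMP28, epilysin, had 4.04 to 27.2 CPM in Kyse30, MMP2, gelatinase A, 1.28 to 15.7 CPM, and MMP16 0.173 to 22.4 CPM. At 6 h in untreated cells 3 of 11 were higher in Kyse30 (MMP2, MMP3, and MMP28) and 2 were higher in FaDu (MMP15 and MMP17), beside 22.4% of all genes called. MMP2 had at most 1 read in any FaDu library and MMP28 at most 1.61 CPM. MMP15, a membrane-bound MMP, differed by a log2FC of -3.23 ± 0.66 and had 5.38 to 17.2 CPM in FaDu. Of TIMP4, RECK, and A2M, the other inhibitors listed, none passed the filter in Kyse30, and RECK alone passed in FaDu, with at most 2.10 CPM.

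Among the matrix genes listed, the laminin chains LAMB3 and LAMA3 rose with EGFhigh for 72 h in Kyse30, by a log2FC of 1.94 ± 0.40 and 1.67 ± 0.37. FN1, fibronectin, fell by 4.80 ± 0.69 and TNC, tenascin-C, fell by 1.88 ± 0.54. With EpEX added to EGFhigh, the log2FC of FN1 was 3.44 ± 0.65, and from 6 to 72 h in Ctrl FN1 rose by 3.20 ± 0.63. Among AP-1 and ETS factors 4 of 14 were called with EGFhigh at 72 h, where 6.2% of all genes were called, FOS (-2.66 ± 0.65), FOSB (-2.57 ± 0.43), and ATF3 (-1.50 ± 0.43) lower and ETS1 (1.70 ± 0.48) higher. In Ctrl itself 6 of these 14 were called from 6 to 72 h, all higher, beside 1.55% of all genes. With EpEX added to EGFhigh at 72 h 3 were called, all higher, beside 3.58%. With EGFhigh against Ctrl at 72 h, beside 6.2%, 1 of 7 activators and inducers was called, KLK7, which did not exceed 8.53 CPM. PLAU and PLAUR, of the plasminogen activator system, were not called. Of the ADAM proteases 1 of 9 was called, ADAMTS1, which fell by 2.56 ± 0.74.

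At 6 h in Kyse30, 2, 3, and 2 of the 14 AP-1 and ETS factors were called with EGFlow, EGFhigh, and EGFhigh with EpEX (background 1.5%, 2.55%, and 4.52%). ETS1 was higher in each (log2FC 2.51, 2.58, and 2.05), ATF3 was lower in each (-2.05, -1.79, and -1.69), and FOSB was lower with EGFhigh (-1.78). In FaDu at 6 h, 3, 2, and 2 of 7 activators and inducers were called with EGFlow, EGFhigh, and EpEX, all higher. PLAUR, the urokinase receptor, was higher with EGFlow (3.70 ± 0.77) and EGFhigh (3.50 ± 0.76), ST14, matriptase, with EGFlow (0.78 ± 0.20) and EpEX (0.90 ± 0.20), and KLK6 with all 3 (1.04 to 1.28). Of the 14 AP-1 and ETS factors, 3 were higher with EGFlow, EGFhigh, and EpEX (background 3.45%, 3.06%, and 3.5%), ETS1 (log2FC 3.73, 3.53, and 3.69), FOSL1 (2.31, 2.29, and 2.46), and ETS2 (1.11, 1.02, and 1.22). ELF3 was lower in each (-2.07, -1.81, and -1.98), and FOS and FOSB were lower with EGFlow (-2.08 and -1.58). No metalloproteinase or inhibitor of the 9 was called beside them.

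Over the mean log2(CPM + 1) of the 13 Kyse30 conditions, the genes most like TIMP3 were CLDN1, a tight junction protein (Pearson r 0.988), SLC16A12 (0.976), and BST2 (0.976), of 10250 other genes with a mean of at least 5 CPM (10251 for MMP1). Those most like TIMP1 were KRT16, a stress keratin (0.947), VAT1 (0.935), and KCNN4 (0.933). Those most like TIMP2 were RAB3B (0.948), LLGL2 (0.945), and S100P (0.929), and those most like MMP1 were S100P (0.928), RAB3B (0.921), and LEMD1 (0.918). For MMP10 they were FKBP9 (0.938), CEBPA (0.928), and IGFBP3 (0.896), and for MMP14 PFKL (0.944), C19orf66 (0.941), and TMEM173 (0.938). Among the members, TIMP3 was most like MMP14 (0.892) and MMP10 (0.802), and MMP1 most like TIMP2 (0.860) and TIMP1 (0.855). Replicate 4, the highest for MMP10 in all and the lowest for TIMP3 in 9 of the 10 conditions that include it, is absent from the rest of the 13. The means thus mix treatment, time, and replicate number, and these values are descriptions.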

How the data were processed

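The 84 libraries were 3′ RNA sequencing libraries of Kyse30 and FaDu cells. The authors deposited 1 table of whole-number read counts per gene and library. The submitters' processing notes name STAR, HTSeq, and GRCh38 (hg38), while the strand setting, the gene annotation, and the handling of PCR copies are not given in the sources used here. Identifiers were matched to symbols in GENCODE release 29. Levels were computed as CPM, with the reads on genes as the total and without length correction.

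Genes were kept by filterByExpr (minimum count 10, minimum total 15), scaled by TMM, and tested with the quasi-likelihood test of edgeR 4.0.16 in R 4.3.3, with 1 fit for Kyse30, 1 for FaDu replicates 3 and 4, and 1 for both. All conditions of a fit shared the estimate of spread, and Benjamini-Hochberg adjustment ran over all genes tested. EGF was compared with Ctrl, and EpEX and EGFhigh with EpEX were compared with Fc. EGFhigh with EpEX was also compared with EGFhigh alone, which held no Fc. A gene was called at an adjusted p of at most 0.05 with an absolute log2FC over 0.5. DESeq2 1.42.0, other filters and scaling, a replicate block, and libraries left out in turn were alternatives. Scripts were tested on simulated data, with changes set in genes of at least 5 CPM. For EGFhigh against Ctrl in Kyse30 at 72 h, 36% of 2-fold and 81% of 4-fold changes were recovered. For FaDu at 6 h these were 45% and 90%. A member that was not called is therefore not shown to be unchanged. Genes named are the 9 members, listed pathway genes that were called or give a level, and the 3 genes most like each member. Members and lists were chosen with earlier results of these data known. Read depth limits the precision of low counts, and limits for a count of 0 cover counting error only. One matrix gene of the lists is not reported here, and the counts that include it were left out.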

Additional observations from a re-analysis of the deposited data

Results flagged for a closer look

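In Kyse30 treated with EGFhigh and EpEX for 6 h, MMP10 of replicate 4 had 18.7 CPM and stood far from the other 3 libraries (0.126 to 2.22 CPM). It was the only one of 24 groups of 4 libraries tested in which a library stood apart by Dixon's criterion, which chance meets in about 1 of 20 groups. The response of TIMP3 to EGFhigh in Kyse30 differed between 72 and 6 h by a log2FC of -2.74.

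FaDu replicates 1 and 2 entered the comparisons of the report only where all 41 FaDu libraries were used, and some of their libraries labelled as treated exceeded every library labelled Ctrl or Fc of those replicates. Replicates of 1 condition differed widely in them, and whether each of these libraries matches its label was not tested, so the treatments named here are those of the labels. MMP9 reached 9.46 CPM with EGFlow at 72 h (0 to 4.56 CPM in Ctrl and Fc), and MMP10 reached 8.10 CPM with EpEX at 72 h (0 to 0.508 CPM). MMP14 reached 469 CPM with EGFlow at 72 h (3.26 to 206 CPM), and TIMP1 reached 656 CPM with EpEX at 72 h (40.9 to 367 CPM). Fibroblast markers also varied in these libraries, and their part in these values was not tested.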

How the results depend on the processing

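Of 182 differences of members tested, 11 were called, 19 were called in these or in any alternative, and 163 in none. TIMP3 was called for EGFhigh against Ctrl at 72 h (log2FC -3.15 to -2.22 over all alternatives) and from 6 to 72 h (2.90 to 3.54) in every fit run. For EGFhigh with EpEX against EGFhigh at 72 h, 1 member was called in the main fit, beside 550 of 15350 genes. DESeq2 called 2 members, beside 853 genes. Without a filter 3 were called (790 of 27643 genes), as with replicates 1 to 3 alone (424 of 15736 genes). With a library left out the number of members ran from 0 to 2. For EGFhigh against EGFlow at 72 h, 2 members were called in the main fit, beside 573 of 15350 genes. DESeq2 called 4 members, beside 850 genes. When only the groups compared were fitted, 0 were called, beside 241 of 13190 genes. With a library left out the number of members ran from 1 to 3. For EGFhigh against Ctrl at 72 h the number of members called ran from 1 to 4 with a library left out. For the difference between 72 and 6 h it ran from 0 to 1, and for the cell lines from 2 to 3. Without a filter, MMP10 was called with EGFhigh at 6 h in Kyse30 (1 in place of 0 members), beside 581 genes in place of 391. TIMP1 was called with EpEX at 6 h in FaDu without a filter and by DESeq2 (1 in place of 0 members). These fits called 785 and 750 genes in place of 560. With all 41 FaDu libraries, no member was called between the lines (0 in place of 3), beside 953 of 19519 genes in place of 4400 of 19634. In that fit TIMP3 turned to -1.78 (adjusted p = 0.601). The cause was not tested, except that leaving out a library or fitting fewer groups leaves fewer libraries.

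Over all genes, libraries of the same replicate number deviated together only weakly (mean correlation 0.0633 in Kyse30, lowest -0.131, and 0.0713 in FaDu, lowest -0.0362). Between different numbers the mean was -0.0216 in Kyse30 and -0.0713 in FaDu. The main fits took libraries of a number to share only that number. Even so, replicate 4 of Kyse30 was the highest for MMP10 in 10 of 10 conditions and the lowest for TIMP2 and TIMP3 in 9 of 10. For TIMP1 it was the highest in 7 of 10 and the lowest in 2. For EGFhigh against Ctrl in Kyse30, a replicate block called 636 genes in place of 391 at 6 h and 978 in place of 951 at 72 h. With a replicate block, 5 members in place of 3 were called for EGFhigh against Ctrl at 72 h, with MMP10 at -2.70 (adjusted p = 0.0132) and TIMP2 at 0.84 (adjusted p = 0.0105) added. For EGFhigh with EpEX against EGFhigh at 72 h the replicate block called 3 in place of 1, beside 604 genes in place of 550. MMP10 at 3.83 (adjusted p = 0.000783) and TIMP2 at -0.82 (adjusted p = 0.0169) were added. For EpEX in FaDu at 6 h the replicate block called 1 member (TIMP1) in place of 0, beside 763 genes in place of 560. In the fit of both lines, only the untreated 6 h libraries were left out in turn, and leaving out the others was not run. Where this left 1 FaDu library in a group, it was assumed to vary like the other groups. The fit of Kyse30 replicates 1 to 3 was chosen after seeing the data. Over all genes, EGFhigh against Ctrl at 72 h called 951, 502 when only the groups compared were fitted, and 1628 against Ctrl and Fc together. Differences of genes with few reads (MMP9, MMP13, and TIMP3 in FaDu) were limited by depth.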
